A study of Gossypium hirsutum with 12 samples.

Results

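RAV1 (LOC107946446) of upland cotton, Gossypium hirsutum, is 1 transcription factor gene among 520 that probe sets of the Affymetrix Cotton array are annotated to by locus. Its 3 probe sets, of 24132, are GhiAffx.30941.1.S1_s_at (the bright probe set), Ghi.8341.1.S1_x_at (the _x_at probe set) and GhiAffx.30941.1.A1_s_at (the A1 probe set), and all 3 passed the filter on dim signals. The gene was chosen by its signal at 42 °C against 32 °C, averaged over both cultivars and within Sicala 45, so its heat changes are given as a description and carry no test. RAV proteins join an AP2 and a B3 DNA-binding domain in 1 protein, and each domain contacts its own short DNA motif. In Arabidopsis, RAV1 transcript falls under brassinosteroid, rises as leaves mature, and its overexpression slows growth and speeds leaf senescence, while the related TEM proteins repress flowering.

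The arrays measured RNA from the youngest-but-two fully expanded leaf of vegetative plants grown in field soil, with 3 arrays in each of 4 groups. The groups were Sicala 45 at 42 °C, Sicala 45 at 32 °C, Sicot 53 at 42 °C and Sicot 53 at 32 °C by day. Every plant first had 4 d in a growth cabinet with 32 °C days and 25 °C nights. Heated plants were then held at 42 °C and 67% relative humidity during the day and at 25 °C and 40% during the night, with ample water. They went into the cabinet once the plants sampled at 32 °C were out, which means that temperature and cabinet run cannot be told apart. The humidity at 32 °C is not given, so whether it differed as well is not known. Whether the 3 samples of a group are separate plants is not given, and the p-values cover only the spread between these samples, which may be technical.

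Each array carried MAS5 signals scaled to a common level, with medians of 86.4 to 115 over all probe sets. Log2 values of arrays of 1 group correlated at r between 0.914 and 0.968 across the tested probe sets. Rubisco activase (RCA1), a defining leaf mesophyll transcript, had mean signals of 36899 at 42 °C and 30365 at 32 °C in Sicala 45, and 37317 at 42 °C and 40351 at 32 °C in Sicot 53. Of the 22 tested probe sets of fibre and seed coat markers 0 passed the threshold for averaged heat (limma, adjusted p under 0.05), where 4.22% of all 16820 tested probe sets were called higher and 4.59% lower. Their median log2 change was -0.22, against -0.05 over all tested. The markers were matched by gene name, and some were bright in these leaves, while others were dim. A probe set of FSLTP2 had group mean signals of 15494 to 19076, so such names need not mark fibre or seed coat here. Scaled to the spikes added to the RNA, 1.64% of all tested probe sets were called higher and 32.7% lower, and 6 of the 22 markers fell, which is no larger a share. The medians were then -0.71 for the markers and -0.51 over all. Of 3 seed and 2 mesophyll marker probe sets none passed, with medians of +0.51 and +0.19. Whole leaves were measured, so more cells of a type and more RNA per cell cannot be told apart.

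GhiAffx.30941.1.S1_s_at lay at percentiles 88.1 to 97.5 of the signals on the heated arrays and at 56.7 to 82.7 at 32 °C. In Sicala 45 its signals were 2079, 1598 and 5834 at 42 °C, against 247, 359 and 386 at 32 °C. In Sicot 53 they were 1382, 1537 and 2056 at 42 °C, against 547, 843 and 167 at 32 °C. All 6 heated arrays lay above all 6 arrays at 32 °C. Replicate 3 of heated Sicala 45 stood far above its group, and the Sicot 53 arrays at 32 °C were the most uneven in log2 terms. The group means were 3170 ± 2320 in Sicala 45 at 42 °C, 1658 ± 353 in Sicot 53 at 42 °C, 519 ± 339 in Sicot 53 at 32 °C and 330.5 ± 73.6 in Sicala 45 at 32 °C (SD, n = 3 each). In this order the cultivars overlapped at both temperatures, and only the step between Sicot 53 at 42 °C and Sicot 53 at 32 °C parted neighbouring groups.

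Ghi.8341.1.S1_x_at was dim, at percentiles 25.0 to 55.9 of the signals on the heated arrays and at 6.45 to 39.4 at 32 °C. In Sicala 45 its signals were 57.4, 89.0 and 161 at 42 °C, against 2.95, 13.7 and 4.72 at 32 °C. In Sicot 53 they were 21.5, 81.1 and 122 at 42 °C, against 30.6, 58.1 and 2.94 at 32 °C. The temperatures were apart in Sicala 45 and overlapped in Sicot 53. On 4 of the 6 arrays at 32 °C its signal lay at or under the highest of 6 control probe sets for bacterial trp sequences, whereas all 6 heated arrays exceeded those controls. No detection calls were used here, so whether RAV1 RNA was present at that level is not known.

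GhiAffx.30941.1.A1_s_at lay near the middle of the heated arrays' signals, at percentiles 47.4 to 52.0, and at 28.0 to 43.2 at 32 °C. In Sicala 45 its signals were 86.7, 108 and 101 at 42 °C, against 27.9, 48.0 and 52.5 at 32 °C. In Sicot 53 they were 93.3, 100.4 and 87.7 at 42 °C, against 64.9, 40.4 and 44.6 at 32 °C. All heated arrays were above all arrays at 32 °C, and its 6 heated values stayed within 86.7 and 108. It shares its cluster number with the bright probe set, and in Affymetrix naming the letters S and A stand for a sense and an antisense orientation of the consensus sequence. Whether it read an antisense RNA was not tested. The endings _s_at and _x_at mark probe sets that can match related transcripts, and cotton is a tetraploid with paired gene copies, so RAV1 copies may not be separate.

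**Figure D1:**
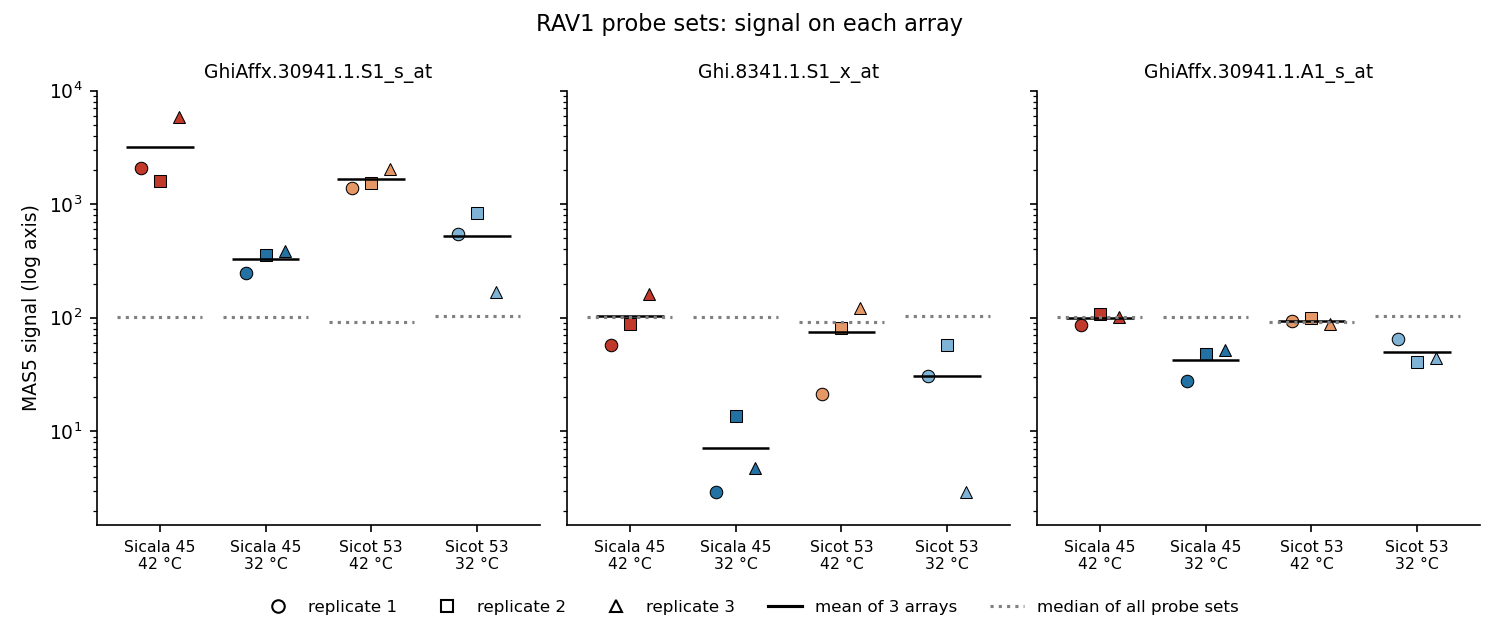
MAS5 signal of the 3 RAV1 probe sets on each of the 12 arrays (log axis), by cultivar and day temperature, with black lines at the mean of 3 arrays and dotted lines at the mean of the arrays' medians over all probe sets. GhiAffx.30941.1.S1_s_at lies above the dotted lines on every array, at 1382 to 5834 at 42 °C and 167 to 843 at 32 °C. Ghi.8341.1.S1_x_at and GhiAffx.30941.1.A1_s_at reach the array medians only in heated leaves.

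On the scale of log2(signal + 16), the heat change averaged over cultivars was +2.44 ± 0.38 (SE) for the bright probe set, +1.64 ± 0.40 for the _x_at probe set and +0.87 ± 0.19 for the A1 probe set. These sizes placed them at 47, 128 and 588 in the order of rises among the 16820 probe sets. The added 16 compresses the changes of the dim probe sets. The ratio of mean signals at 42 °C over 32 °C has no added 16 but gives bright arrays more weight. For the bright probe set it was 9.59 in Sicala 45, where 1 heated array read 5834, and 3.19 in Sicot 53. From the log2 means, the folds of this probe set were 7.93 in Sicala 45 and 3.70 in Sicot 53. For the A1 probe set the ratio of mean signals was 2.30 and 1.88. The _x_at probe set was at or under the trp controls on 2 of 3 arrays of each cultivar at 32 °C, and with those signals raised to the highest trp control of their array its ratio was 6.18 in Sicala 45 and 1.99 in Sicot 53. Its log2 changes depend likewise on the added 16.

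All 3 probe sets were among the 4.22% of tested probe sets called higher for averaged heat (limma, adjusted p under 0.05), which is the contrast that chose them. Within Sicala 45, 1 of the 3, the bright probe set, was among the 1.15% called higher, and within Sicot 53 none was among the 1.05%. The heated arrays were all above the 32 °C arrays for 3 of 3 probe sets in Sicala 45 (9.58% of tested probe sets), for 2 of 3 in Sicot 53 (9.16%) and for 2 of 3 in both (4.11%). Nothing is read from these shares, since the gene was chosen on the averaged and Sicala 45 changes, and the average holds the Sicot 53 arrays.

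Within Sicala 45 the heat changes were +2.99 ± 0.54 (SE) for the bright probe set, +2.29 ± 0.57 for the _x_at probe set and +0.98 ± 0.26 for the A1 probe set. Within Sicot 53 they were +1.89 ± 0.54, +0.98 ± 0.57 and +0.75 ± 0.26 in the same order of probe sets. Single arrays weighed on the Sicot 53 values. Without Sicot 53 at 32 °C replicate 3, the array with the lowest RAV1 signals of its group on those probe sets, the changes of the bright probe set and the _x_at probe set were +1.25 and +0.44. Without Sicot 53 at 42 °C replicate 1 or replicate 3, the _x_at probe set had +1.52 or +0.58. Without Sicala 45 at 42 °C replicate 3, the array with the highest signals, the bright probe set still had +2.43 in Sicala 45.

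Not every control measure was level across temperatures. Poly-A spikes, bacterial transcripts added to sample RNA, had 1.43 times the signal at 42 °C. The 3' to 5' ratio of the ubiquitin gene ubq11, a sign of RNA or cDNA length, was 6.39 to 41.5 at 42 °C and 4.73 to 10.7 at 32 °C. The same ratio for actin was 6.02 to 18.6 at 42 °C and 7.98 to 13.5 at 32 °C, with medians of 10.4 at 42 °C and 10.5 at 32 °C. With each array scaled to its spikes, the averaged heat changes were +1.94 for the bright probe set, +1.36 for the _x_at probe set and +0.46 for the A1 probe set, where the median of all tested probe sets shifted to -0.51. Without the 2 arrays whose ubq11 ratio was above 20, replicate 2 of each cultivar at 42 °C, they were +2.65, +1.58 and +0.82. The changes were positive for all 3 probe sets under each of these settings.

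The cultivar differences share the Sicala 45 arrays with the heat change that helped to choose the gene, a choice that favours a negative sign at 42 °C and a positive one at 32 °C, so they too are a description and carry no p. At 42 °C, Sicot 53 minus Sicala 45 was -0.71 ± 0.54 (SE) log2 units for the bright probe set, with a 95% interval of -1.89 to 0.47. The _x_at probe set had -0.48 (-1.73 to 0.76) and the A1 probe set -0.06 (-0.63 to 0.52). At 32 °C the values were +0.39 (-0.79 to 1.57) for the bright probe set, +0.83 (-0.42 to 2.07) for the _x_at probe set and +0.17 (-0.40 to 0.75) for the A1 probe set. All 6 intervals include 0. None of the 3 was among the 0.107% of tested probe sets called at each temperature. For 0 of the 3 were the arrays of the cultivars fully apart, against 6.18% of tested probe sets at 42 °C and 7.17% at 32 °C. With shares this small, 3 probe sets are too few for these counts to be read. The intervals of the bright probe set still hold differences of 1 log2 unit in one direction at each temperature, so equal levels are not shown.

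The cultivars' heat changes were also set against each other, in a contrast that subtracts the Sicala 45 change used in the choice and whose negative sign that choice favours. Sicot 53 minus Sicala 45 gave -1.10 ± 0.77 (SE) for the bright probe set (95% interval -2.77 to 0.57). It gave -1.31 ± 0.81 for the _x_at probe set (-3.07 to 0.45) and -0.23 ± 0.37 for the A1 probe set (-1.04 to 0.58). All 3 intervals include 0, and nothing is read from the shared sign. In limma 0% of all tested probe sets were called for this contrast, with 321 of 16820 at an unadjusted p under 0.05.

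**Figure D2:**
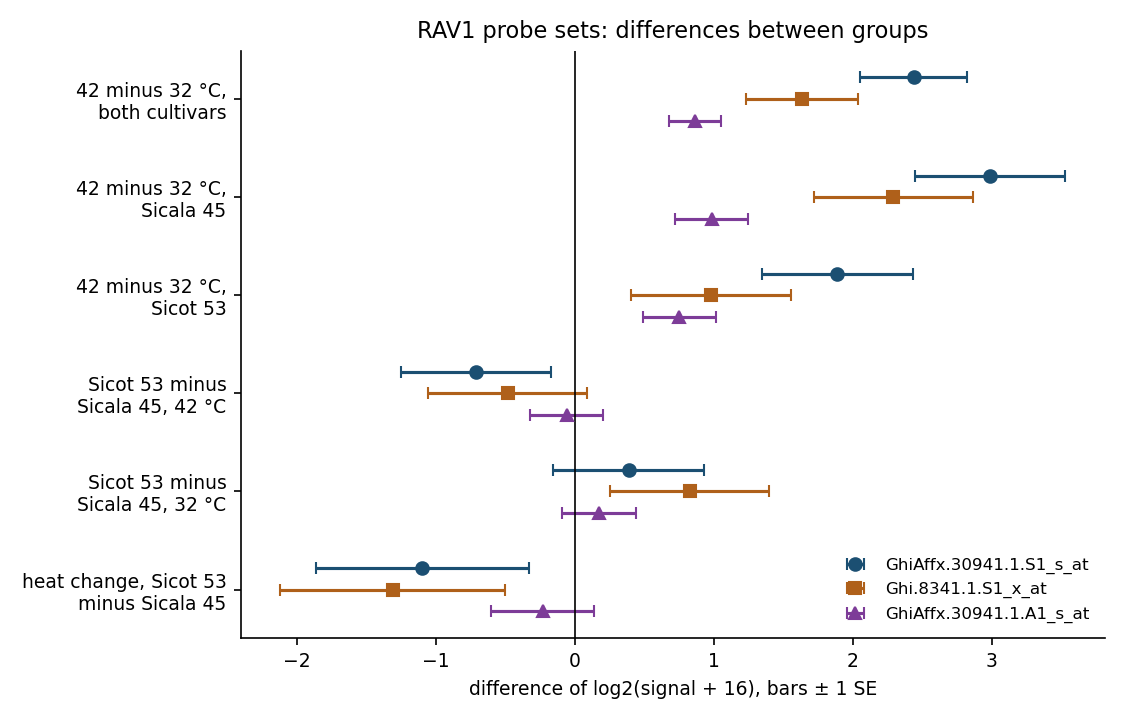
Differences of log2(signal + 16) between groups for the 3 RAV1 probe sets, each with a bar of 1 SE from the model of 12 arrays. The upper 3 rows, which chose the gene, are positive for every probe set, from +0.75 to +2.99. The cultivar differences lie between -0.71 and +0.83 and the differences between heat changes between -1.31 and -0.23.

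Whether the probe sets followed each other from array to array was asked within each temperature, since the rise itself would tie them. The permutations took both cultivars together, so a shared cultivar difference could tie the probe sets as well. Over the 6 arrays at 32 °C, the bright probe set and the _x_at probe set correlated at Pearson's r = 0.912 (exact permutation p = 0.0069, 0.0417 adjusted over 6 relations) and Spearman's rho = 0.943 (exact permutation p = 0.0167, adjusted 0.1). Both were highest in Sicot 53 replicate 2. Without the 2 arrays farthest from the median of the _x_at probe set, r was 0.606. Those 2 were its brightest arrays at 32 °C, Sicot 53 replicates 1 and 2, with signals of 30.6 and 58.1. On 4 of these 6 arrays, replicate 1 of Sicot 53 included, the _x_at signal was at or under a trp control. The relation thus depends on few signals above background level and is read no further. Over the 6 arrays at 42 °C the same pair had r = 0.691 (exact permutation p = 0.168, adjusted 0.504) and rho = 0.657 (exact permutation p = 0.175, adjusted 0.525), and r = -0.03 without the 2 farthest arrays. That relation therefore did not pass and rested on those arrays.

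The A1 probe set followed neither partner beyond the permutation test. With the bright probe set it had r = 0.0873 (exact permutation p = 0.907) and rho = -0.0857 (p = 0.919) at 42 °C, and r = 0.320 (exact permutation p = 0.554) and rho = 0.314 (p = 0.564) at 32 °C. With the _x_at probe set it had r = 0.270 (exact permutation p = 0.622) and rho = 0.429 (p = 0.419) at 42 °C, and r = 0.286 (exact permutation p = 0.561) and rho = 0.257 (p = 0.658) at 32 °C. Adjusted over the 6 relations, the exact permutation p-values of these r were 0.747 to 0.907 and those of rho 0.79 to 0.919. Without the 2 arrays farthest from the median of the measure on the x axis (A1 in the first pair, _x_at in the second), r was 0.403 at 42 °C and -0.35 at 32 °C with the bright probe set, and 0.087 at 42 °C and 0.434 at 32 °C with the _x_at probe set. Its 6 values spanned 86.7 to 108 at 42 °C and 27.9 to 64.9 at 32 °C.

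Taken as deviations from the 4 group means over 12 arrays, the bright probe set and the _x_at probe set had r = 0.796, again with the 4 background-level signals among the 12. Seen from the bright probe set, the _x_at probe set stood at place 262 of 16819 probe sets in the order of r, and the A1 probe set at place 6408 with r = 0.164. The deviations of many probe sets ran together, and 39.5% of their variance lay on 1 component. The bright and _x_at probe sets lay mostly off it, with r = 0.157 and -0.01. The A1 probe set had -0.51 (the sign of a component is arbitrary), where the median absolute r of all tested probe sets was 0.50. The spike signal, which shares the arrays' scaling, had r = 0.499 with the deviations of the bright probe set and 0.71 with those of the _x_at probe set. For the bright, _x_at and A1 probe sets in turn, the 3' to 5' ratio of actin had r = 0.308, 0.519 and 0.477. That of ubq11 had -0.01, 0.336 and 0.45. The part of these measures in the agreement of the probe sets was not tested.

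**Figure D3:**
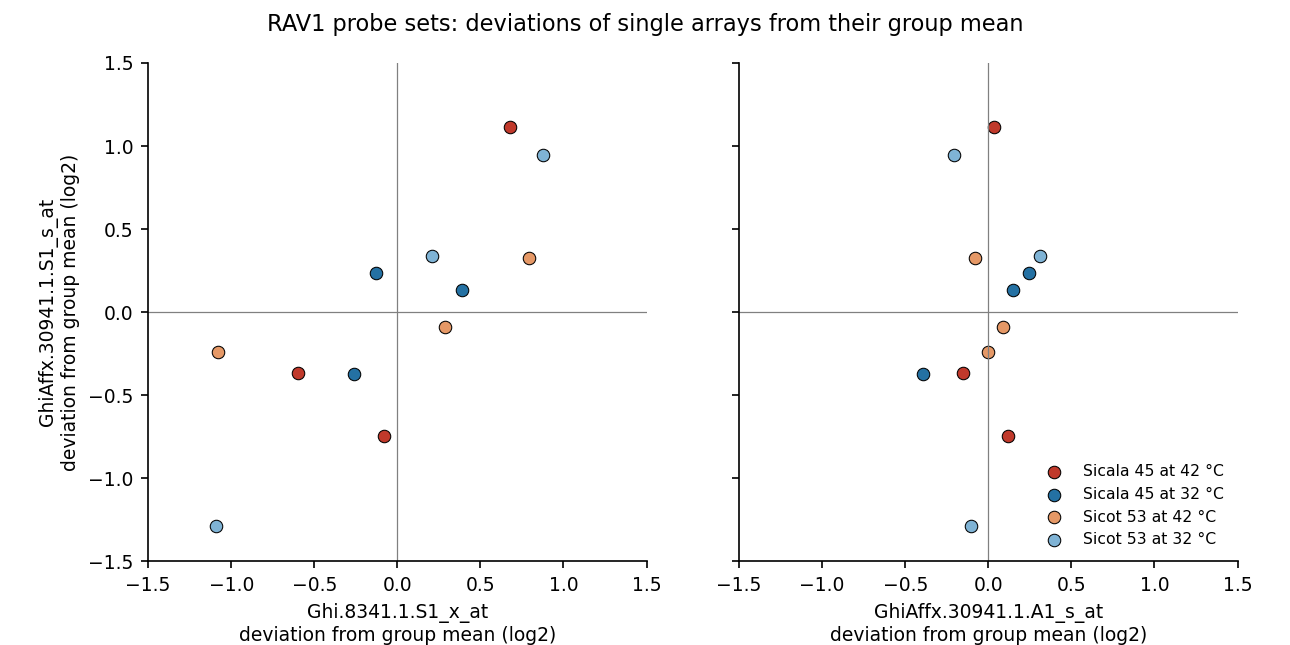
Deviation of each array from its group mean, in log2(signal + 16), for GhiAffx.30941.1.S1_s_at against Ghi.8341.1.S1_x_at (left) and against GhiAffx.30941.1.A1_s_at (right). On the left the points run from lower left to upper right (r = 0.796). On the right the horizontal spread is small, between -0.39 and 0.31, and r is 0.164.

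The genes whose pattern was most like RAV1 were ordered by Pearson's r with the mean of the 3 probe sets over 12 arrays, as a description. The arrays share their scaling and, in the plain log2 values, the rise at 42 °C. On those values, the named genes of highest r were NAC4, a NAC-domain transcription factor, at 0.897 and NAC2, of the same family, at 0.878. Next came the class III peroxidase pod5 at 0.875, the ACC oxidase ACO3 of the last step of ethylene synthesis at 0.867, the sodium/proton exchanger NHX1 at 0.865 and the calcium sensor CBL2 at 0.862. The xyloglucan endotransglucosylase XTH3, which remodels cell walls, had 0.860 and a MAPKKK, a kinase at the head of a signalling cascade, 0.844. NAC4 held only place 92 of 16817, and the first 3 places went to probe sets with no gene symbol listed, GhiAffx.35224.1.A1_at (r = 0.968), GhiAffx.2081.1.S1_s_at (0.956) and Ghi.3478.2.S1_s_at (0.956). GhiAffx.35224.1.A1_at had signals of 1330, 1422 and 2290 in heated and 327, 793 and 531 in 32 °C Sicala 45, and 892, 1733 and 1681 in heated and 690, 856 and 298 in 32 °C Sicot 53. Its replicate 3 was thus the highest in heated Sicala 45 and the lowest in Sicot 53 at 32 °C, as for the bright probe set.

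With the group means removed, so that neither temperature nor cultivar counted, the order changed. NAC4 had r = 0.506 and NAC2 0.316. The named genes of highest r were pod5 (0.904), the gibberellin receptor GID1-4 (0.901), NHX1 (0.893), XTH1 (0.886), XTH3 (0.884), MAPKKK (0.850), ACO3 (0.834) and the fibre gene Fb2 (0.795). The probe sets with no gene symbol listed that led this order were GhiAffx.13357.1.S1_at (0.980), GraAffx.15028.1.S1_s_at (0.974) and GhiAffx.1082.1.S1_at (0.970). In all, 69 of 16817 probe sets had r above 0.9 on this measure. pod5 had signals of 220, 203 and 372 in heated and 69.0, 92.2 and 125 in 32 °C Sicala 45, and 95, 122 and 267 in heated and 85.8, 159 and 32.1 in 32 °C Sicot 53. Like the bright probe set it was highest on replicate 3 of both heated groups and lowest on replicate 3 of Sicot 53 at 32 °C. Of these 8 genes XTH3 alone passed the threshold for averaged heat (log2 change +1.70 ± 0.47 SE, limma adjusted p = 0.0455), and Fb2 had -0.69 ± 0.21 (adjusted p = 0.0607), opposite in sign to RAV1.

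Genes with a domain or pathway in common with RAV1 were taken from lists of gene names. Of the 697 probe sets with 1 gene symbol, 319 carry a gene name, and no locus besides RAV1 is named RAV or TEM. Of 6 tested probe sets of AP2/ERF factors, the class that shares RAV1's AP2 domain, 1 rose for averaged heat and 0 fell, with a median log2 change of +0.15. The riser was a probe set of the C-repeat binding factor CBF17, at mean signals of 142 ± 32.0 at 42 °C and 71.2 ± 8.63 at 32 °C in Sicala 45, and 145 ± 36.7 at 42 °C and 53.2 ± 9.44 at 32 °C in Sicot 53 (SD, n = 3). Its log2 change was +1.02 ± 0.18 (SE, limma adjusted p = 0.0061), and +0.58 (adjusted p = 0.0622) with the spikes as the scale. Another CBF17 probe set, far brighter with group mean signals of 11812 to 14009, had +0.18 ± 0.14 (limma adjusted p = 0.469). ERF8, an ethylene response factor, had +1.67 in Sicala 45 and +0.66 in Sicot 53, and +1.16 ± 0.41 averaged (adjusted p = 0.103). CBF20 had +0.13 ± 0.17 (SE, limma adjusted p = 0.694). CBF15 had -0.31 ± 0.18 and ERF3 -0.20 ± 0.15. Over all tested probe sets the share of rises was 4.22% and of falls 4.59%, so 1 rise among 6 is a small count. With the spikes as the scale, where 32.7% of all tested probe sets fell, CBF15 and ERF3 fell as well (-0.82, limma adjusted p = 0.0236, and -0.70, adjusted p = 0.0119). Nothing is read from those falls.

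The B3 list held ARF1 besides RAV1. It fell (log2 change -0.70 ± 0.17 SE, limma adjusted p = 0.0243), but ADP-ribosylation factors, which lack a B3 domain, carry the same name. Nothing about B3 factors is therefore read from ARF1. It did not pass with the arrays centred on their medians (-0.62), nor without Sicala 45 at 32 °C replicate 3, Sicot 53 at 32 °C replicate 1 or 3, or Sicot 53 at 42 °C replicate 3 (-0.71 to -0.63). Of 6 ethylene probe sets, 1 rose, the ACC oxidase ACO1 (+0.94 ± 0.23, adjusted p = 0.0261), with a list median of -0.36. With the spikes as the scale ACO1 had +0.43 (limma adjusted p = 0.078), and 0 of the 6 rose and 2 fell, where 1.64% of all tested probe sets rose and 32.7% fell. In 6 of the 12 fits that left out 1 array no ethylene probe set rose, and none did without the 2 arrays of high ubq11 ratio, or with RNA quality as a covariate. ACO3 had +0.60 ± 0.20 (adjusted p = 0.0871), ACS1 -0.40 ± 0.15 and the probe set of a different ACO1 locus -0.93 ± 0.47 (adjusted p = 0.247). The ACS names may not all be ACC synthases. DET2, a brassinosteroid synthesis enzyme, had +0.11 ± 0.24 (adjusted p = 0.814), and no tested probe set was named for abscisic acid synthesis or signalling.

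Of 11 probe sets in the NAC and WRKY list, families with members that act in leaf senescence, 4 rose and 0 fell, with a median of +0.68. Both NAC4 probe sets (+3.33 ± 0.23, limma adjusted p = 2.08e-05, and +1.89 ± 0.27, adjusted p = 0.00148) and both NAC2 probe sets (+1.23 ± 0.17 and +1.25 ± 0.19, adjusted p = 0.00142 and 0.00236) made up the 4. The list was chosen with the rises of NAC4 and NAC2 known, so the count is no independent evidence. Its other NAC probe sets lay between +0.13 and +0.96 and the WRKY probe sets between -0.33 and +0.21, and none of these passed. With the spikes as the scale these 4 probe sets also rose, by +0.71 to +2.84. On that scale 1 WRKY15 probe set, both COL5-D probe sets and the DELLA gene GAI2 fell, where 32.7% of all tested probe sets did, and nothing is read from those falls. Of 3 probe sets in the flowering and MADS-box list, MADS-3 rose (+0.73 ± 0.18, adjusted p = 0.0295), with +0.25 (adjusted p = 0.402) on the spike scale, and in 8 of the 12 fits that left out 1 array no member of this list rose. The 2 of COL5-D, a CONSTANS-like gene, had -0.91 ± 0.33 (adjusted p = 0.106) and -0.50 ± 0.27 (adjusted p = 0.272), and did not pass. None of the 3 gibberellin probe sets passed, at +0.70 ± 0.32 for GID1-4, +0.19 ± 0.40 for GID1-2 and -0.25 ± 0.17 for the DELLA gene GAI2. The only tested match of the heat shock list was CLP (+0.24 ± 0.23), a name that need not mean a Clp chaperone. The median of all tested probe sets was -0.51 on the spike scale.

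**Figure D4:**
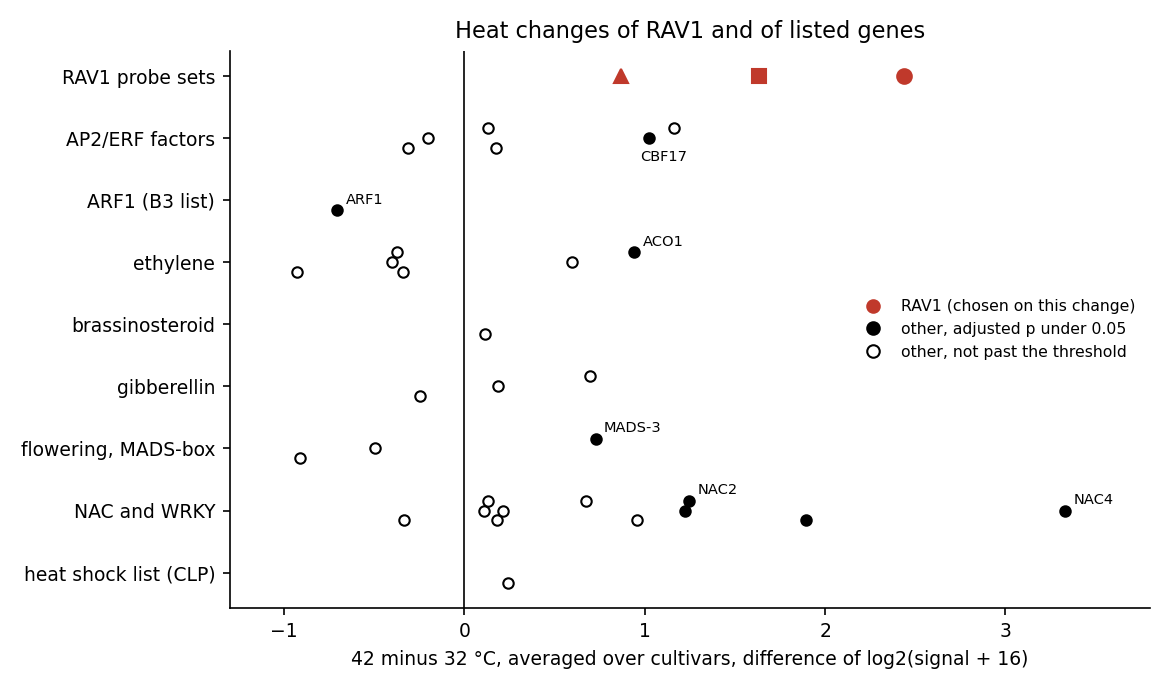
Change at 42 °C over 32 °C in log2(signal + 16), averaged over cultivars, for the 3 RAV1 probe sets (red; circle GhiAffx.30941.1.S1_s_at, square Ghi.8341.1.S1_x_at, triangle GhiAffx.30941.1.A1_s_at) and for each tested probe set of the domain, pathway and gene family lists. The leaf mesophyll, fibre and seed coat, and seed marker lists are not shown. Filled points passed the threshold of 0.05, with 1 label per gene. NAC4 at +3.33 is the only listed point beyond GhiAffx.30941.1.S1_s_at at +2.44.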

How the data were processed

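Leaf RNA was extracted with hot borate, biotin-labelled and hybridised to 12 Affymetrix Cotton arrays (labels' protocols). The deposited intensity values are MAS5 signals on a linear scale that the authors made, per the submitters' processing notes, without a version. Their trimmed mean (2nd to 98th percentile) was 500.3 to 500.4 on every array. Arrays were grouped by title.

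From these, log2(signal + 16) was computed. The 103 control probe sets and of the others the 30% with the lowest mean log2 value were left out, leaving 16820. The 4 group means were estimated in limma 3.58.1 (R 4.3.3, eBayes with intensity trend, two-sided), with Benjamini-Hochberg adjustment over all tested probe sets and a threshold of 0.05, tested on simulated data. Correlations were tested over all 720 pairings, two-sided. Spikes were 36 probe sets. Raising dim signals to the trp controls was chosen after the values were seen.

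Gene names came from the platform annotation, matched by gene ID to RefSeq's table of assembly Gossypium_hirsutum_v2.1. Of all probe sets, 697 had 1 symbol, 46 several and 23389 none listed. No sequence or coordinate is given. RAV1, the lists and the tests were chosen with earlier results of these data known. Named were RAV1, the 8 named genes and 3 unnamed probe sets of highest r per measure, and mostly the 4 probe sets of lowest p per list. The second CBF17 probe set, CBF20, DET2 and the other NAC and WRKY values complete their lists. Alternatives were quantile, median and spike scaling, pseudocounts of 1 and 64, other filters, no trend, array weights, only the groups compared, a replicate block, RNA quality and leaving out each array.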

Additional observations from a re-analysis of the deposited data

How the results depend on the processing

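The 3 arrays per group limit precision, and the _x_at probe set is near background at 32 °C. With 1 array left out, 212 RAV1 values were counted as kept and 4 turned in sign. A heat change was kept if it moved by less than its probe set's residual SD. That SD was 0.79 log2 units for the bright and _x_at probe sets and 0.24 for A1, so sizeable shifts count as kept. Other values were kept if their sign and, where tested, their side of the threshold stayed. Under other settings 219 were kept, 10 turned and 11 heat changes moved by more than that SD. Every RAV1 heat change stayed positive in each setting run. The causes were not tested.

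Scaled to the spikes, the A1 probe set had heat changes of 0.46 averaged, 0.61 in Sicala 45 and 0.31 in Sicot 53, and its cultivar difference at 32 °C turned to -0.018. Its cultivar difference at 42 °C turned to 0.080 under quantile normalization and 0.053 under median centring, and the difference between its heat changes to 0.011 under quantile normalization. A pseudocount of 1 gave the _x_at probe set 2.71 averaged and 3.77 in Sicala 45, and the A1 probe set 1.23 in Sicala 45. A pseudocount of 64 gave the A1 probe set 0.54 averaged, 0.61 in Sicala 45 and 0.47 in Sicot 53, and the _x_at probe set 1.18 in Sicala 45. Array weights gave the A1 probe set 0.49 in Sicot 53. With the dimmest 50% left out, the _x_at and A1 probe sets were not tested.

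Under quantile normalization the correlations of the A1 probe set turned, at 42 °C to -0.21 with the _x_at and -0.79 with the bright probe set, and at 32 °C to -0.12 and -0.052. Without the 2 farthest arrays, r turned to -0.026 for the _x_at and bright probe sets at 42 °C, and to -0.35 for the A1 and bright probe sets at 32 °C. With 1 array left out, cultivar differences at 42 °C ranged from -0.88 to 0.059 for the _x_at probe set (turned without Sicot 53 replicate 1) and from -0.14 to 0.0010 for A1 (Sicala 45 replicate 2). At 32 °C they ranged from -0.087 to 1.03 for the bright probe set (Sicot 53 replicate 2) and from -0.024 to 0.30 for A1 (Sicala 45 replicate 1).

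The count of probe sets past the threshold for averaged heat was 1481, against 5772 with spikes (276 higher, 5496 lower), 2954 with array weights, 783 without the arrays of ubq11 ratio above 20 and 763 to 1681 with 1 array left out. Median centring gave 776 higher and 434 lower, against 709 and 772. In Sicala 45 it was 304, against 645, 513 with weights, 140 with only the groups compared and 98 to 335. In Sicot 53 it was 228, against 2000 with weights, 60 with only the groups compared, 149 with the 3' to 5' ratio as covariate, 15 without the high-ubq11 arrays and 18 to 276. Cultivar counts were 18 at each temperature, against 30 at 42 °C and 35 at 32 °C with weights, and the difference between heat changes had 0, against 1 without Sicala 45 at 42 °C replicate 3.

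The replicate block left the RAV1 values as they were (2.44 averaged for the bright probe set) with 623 probe sets called higher and 693 lower. Same-numbered arrays deviated with r from -0.48 to 0.46 over 18 pairs, 7 of them above 0.1. Arrays of different numbers were not compared in this way, so whether the numbers pair samples is not known.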

Other observations

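RAV1 was set beside the other cluster numbers that have 1 probe set with the letter S and 1 with the letter A among those tested, 779 pairs in all. Over these pairs the deviations from group means had a median r of 0.296 (lower quartile -0.02, upper quartile 0.555), and 299 pairs, RAV1 included, were at or below RAV1's 0.164. The S probe set was the brighter in 440 pairs. Of the 38 pairs whose S probe set rose for averaged heat (limma, adjusted p under 0.05), the A probe set also rose in 12, RAV1 included, had a positive value in 35 and fell in 0. Over all tested probe sets 4.22% rose and 4.59% fell. Pairs whose S probe set did not rise were not counted in this way, and RAV1 was chosen for its rise. The orientation of the RNA that the probe sets of these pairs read was not tested.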
